A study of Mus musculus with 10 samples.

Results

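The genes described here are 10 members of the myostatin and insulin-like growth factor (IGF) signaling systems, chosen by name from the gene symbols of the array platform, out of 19938 genes measured in skeletal muscle of the mouse. They are the ligands Mstn (myostatin), Gdf11 and Inhba, the receptor Acvr2b, the antagonist Fst (follistatin), the ligand Igf1, its receptor Igf1r, and the binding proteins Igfbp4, Igfbp5 and Igfbp7. For the comparison of growth inhibitors with growth promoters, Mstn, Gdf11, Inhba and Acvr2b were counted as inhibitors, and Fst, Igf1 and Igf1r as promoters. The 3 binding proteins can hold back or support IGF action and were kept out of both classes. All 10 genes were read by 1 probe set each, a probe set being the group of short probes that reads a gene on the array.

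The study asked how gene expression of fast muscle fibers is set, in part through linc-MYH, an RNA that codes for no protein. RNA was read on 10 Affymetrix arrays (Mouse Gene 1.0 ST), and the labels give the strain C56BL6N and an age of 8 weeks for every sample. In the tibialis anterior (TA), on the front of the lower leg, 10 µg of a plasmid was electroporated, and fibers marked by green fluorescent protein were dissected 2 weeks later. The plasmid was the control vector on 2 arrays and expressed shlincMYH, a short hairpin RNA against linc-MYH, on the other 2. In the gastrocnemius, a calf muscle, RNA came from the whole muscle of 3 wild type controls and of 3 cSix1 KO samples. The cSix1 KO mice are a conditional knockout made with a CRE recombinase driven by the human skeletal actin (HSA) promoter, a promoter active in muscle fibers, so that the deletion is aimed at fibers and not at the other cells of the muscle. The methods give both 10 and 8 weeks for the electroporated mice, and the methods and the labels differ on the labeling kit. The methods take the electroporated muscles of a condition from different mice and use the TA of the other leg, given an shRNA against LacZ, as the control of the knockdown, but the labels do not say which control array belongs to which shlincMYH array. For gastrocnemius neither source says whether each array is another animal, and p-values then measure the spread between these samples, which may be technical in part.

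Myostatin is a secreted member of the TGF-beta family that restrains muscle growth. It is made mainly by muscle fibers, binds the activin type II receptors and acts through Smad2 and Smad3. GDF11 and the activins use the same receptors, and follistatin captures all of these ligands outside the cell. IGF-1, made in the liver and locally in muscle, acts through the IGF-1 receptor and the Akt and mTOR kinases to promote protein synthesis and growth, and IGF binding proteins set how much of it reaches the receptor.

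All values are log2 signals, on which a difference of 1 is a doubling or a halving. The arrays of the tissues share no common scale, so no level is compared between the tissues. The median over all probe sets was 5.09 to 5.14 on the TA arrays and 6.60 to 6.67 on the gastrocnemius arrays. Genes are ranked by level only to mark weak signals in TA. All 8 muscle fiber markers of the list were measured, and Acta1, the actin of skeletal muscle, had a mean log2 signal of 12.66 on the TA controls and 14.03 on the gastrocnemius controls. The targeted genes were not analysed here, so these values give no check of the knockout or the knockdown. A gene was called at an adjusted p under 0.05, in a limma fit with Benjamini-Hochberg adjustment over all 19938 genes.

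In cSix1 KO gastrocnemius the 2 closely related ligands Mstn and Gdf11 fell, and these were the 2 called members of 10. No member was called higher. With the methods' t-test after Benjamini-Hochberg adjustment neither passed (Mstn 0.178, Gdf11 0.171), and 4 genes were called in all. In limma, over all genes 0.833% were called lower and 0.908% higher. The median log2 fold change of the 10 members was 0.19, against 0.01 over all genes, since 6 of the 10 lay above the control mean. The plot of each member by array shows both tissues side by side.

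**Figure D1:**
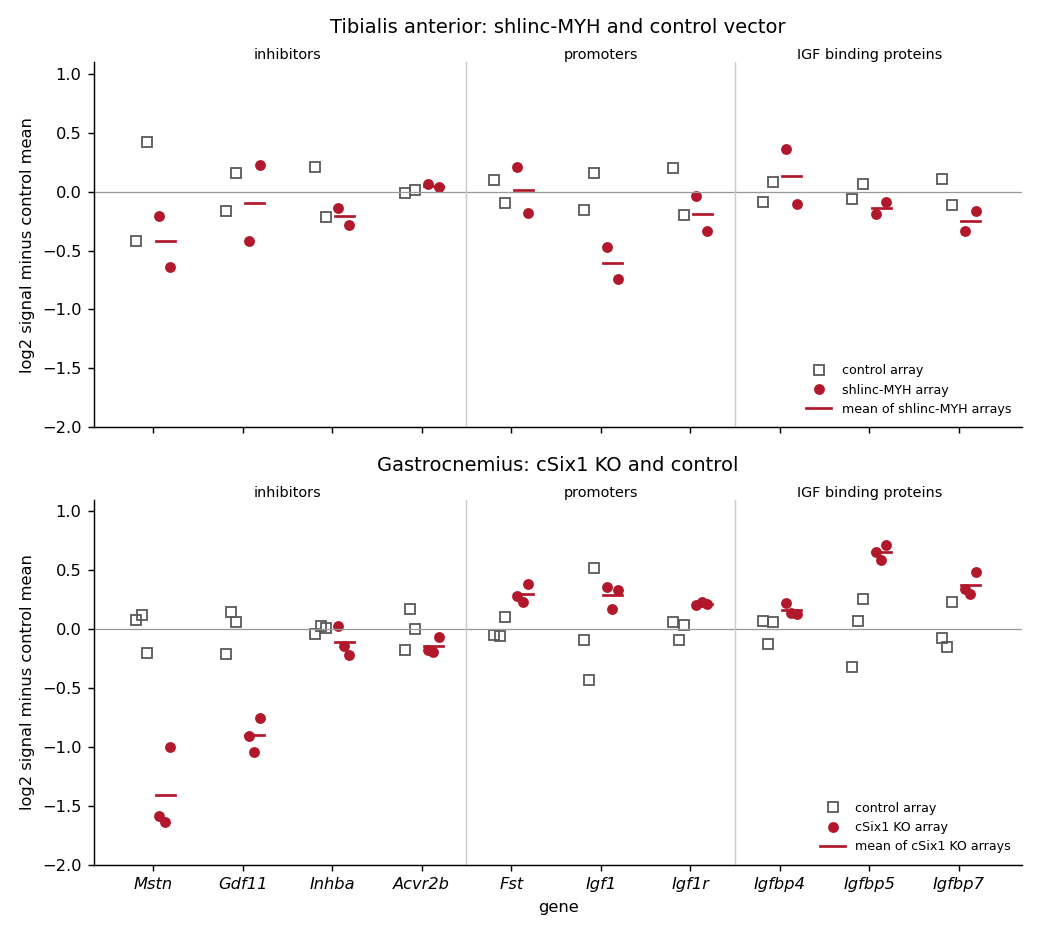
Log2 signal of each of the 10 genes on each array, after subtraction of the control mean of the tissue (vertical axis), with the genes on the horizontal axis by class. Open squares are control arrays, filled circles are shlinc-MYH or cSix1 KO arrays and the bar is the mean of the latter. In gastrocnemius the circles of Mstn and Gdf11 lie apart from and below all squares, and those of Fst, Igf1r, Igfbp4, Igfbp5 and Igfbp7 lie above them.

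Mstn had log2 signals of 10.46, 10.50 and 10.17 in control gastrocnemius and of 8.79, 8.74 and 9.38 in cSix1 KO gastrocnemius. Every cSix1 KO array lay below every control array, and KO array 3 was the nearest to the controls. The mean fell from 10.38 ± 0.18 to 8.97 ± 0.35 (SD, n = 3), a log2 fold change of -1.41 (SE 0.17, 95% confidence interval -1.80 to -1.01), or 0.377 of the control signal, with an adjusted p of 0.0110 in limma. Without control array 2 the adjusted p was 0.0539, and without KO array 2 it was 0.0536.

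Gdf11, whose mature protein is close to myostatin, gave 7.91, 8.26 and 8.18 in control gastrocnemius and 7.21, 7.07 and 7.37 in cSix1 KO. The groups again did not overlap. The mean fell from 8.12 ± 0.18 to 7.22 ± 0.15 (SD, n = 3), a log2 fold change of -0.90 (SE 0.11, 95% confidence interval -1.16 to -0.64), or 0.535 of the control signal, with an adjusted p of 0.0122 in limma. Without KO array 1 the adjusted p was 0.0529 and without KO array 2 it was 0.0556.

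The promoters of these 2 genes are shown because they are the members that fell together. The bases before the annotated start of each gene are printed 5′ to 3′ along the gene's strand, from RefSeq on GRCm38.p6. Capitals mark matches to TATAAA, the core of a TATA box, and to CANNTG, the E-box read by myogenic regulators of the MyoD family. The Mstn stretch is chr1:53061390-53061639 on the plus strand and the Gdf11 stretch is chr10:128891719-128891968 on the minus strand, 250 bases each.
Mstn: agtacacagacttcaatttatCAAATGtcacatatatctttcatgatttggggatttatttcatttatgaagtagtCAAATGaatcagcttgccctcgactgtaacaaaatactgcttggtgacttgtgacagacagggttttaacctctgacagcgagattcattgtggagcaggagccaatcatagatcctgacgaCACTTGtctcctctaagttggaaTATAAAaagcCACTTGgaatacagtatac
Gdf11: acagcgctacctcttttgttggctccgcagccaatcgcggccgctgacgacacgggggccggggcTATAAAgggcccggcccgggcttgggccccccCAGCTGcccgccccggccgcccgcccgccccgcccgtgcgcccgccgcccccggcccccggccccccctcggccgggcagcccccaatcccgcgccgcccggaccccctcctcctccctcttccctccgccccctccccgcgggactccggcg

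Motifs were searched on both strands in windows from 250 bases before to 50 bases after each start, of which 9 of the 10 members had one in the table used, Fst being the other. The Mstn window held TATAAA at 29 bases before the start and 4 E-boxes, at 229, 174, 52 and 19 bases before it. The Gdf11 window held TATAAA at 185 bases and 1 E-box at 153 bases before the start. Among all 32851 windows, 13.6% held TATAAA and 72.3% held CANNTG. The windows differ in composition, with 41.3% G and C in Mstn and 80.7% in Gdf11, against a median of 52.7% over all windows.

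MEF3 is a DNA element of muscle gene promoters and enhancers. The 14 distinct sites of 9 bases that the study lists as tested for MEF3 binding are GAAACCGGA, GAAACCTGA, GAAACTTGA, GAAATCTAA, GAAATCTGA, GAAATTGAA, GAAATTTAA, GCAAGCAGA, GCAAGGCGA, GGAACTTGA, GTAACCTGA, GTAACTGGA, GTAATTTAA and GTAATTTGA. Searched as exact words, they occurred in 3.8% of all windows. Neither the Mstn nor the Gdf11 window held any of them. Among the members with a window, only that of Igf1 did, with GGAACTTGA at 43 bases before the start used. That window, chr10:87860861-87861160, lies inside the annotated gene, which begins at 87858265. The windows of Inhba, Acvr2b and Igfbp4 also lie at starts inside their genes. A match is a description of the letters and does not say that a site is used.

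Inhba encodes the subunit of activin A, a further ligand of the activin type II receptors. Its signals were 6.66, 6.73 and 6.71 in control gastrocnemius and 6.72, 6.55 and 6.48 in cSix1 KO. The ranges overlapped, and the log2 fold change was -0.11 (SE 0.08, adjusted p = 0.606 in limma). Acvr2b, a type II receptor for myostatin, GDF11 and the activins, gave 7.30, 7.65 and 7.48 against 7.30, 7.28 and 7.41, which also overlap. Its log2 fold change was -0.14, with a 95% confidence interval of -0.37 to 0.08. Of the 4 inhibitors all had a mean below the control, and 2 were called.

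Fst, the antagonist of these ligands, had signals of 7.64, 7.63 and 7.79 in control gastrocnemius and of 7.97, 7.92 and 8.07 in cSix1 KO. The KO arrays all lay above the controls, by a log2 fold change of 0.30 (95% confidence interval 0.13 to 0.48), but the adjusted p in limma was 0.107. Igf1r, the receptor through which IGF-1 acts, gave 9.01, 8.86 and 8.99 in controls and 9.16, 9.19 and 9.17 in cSix1 KO. These groups did not overlap either, with a log2 fold change of 0.22 (95% confidence interval 0.06 to 0.37) and an adjusted p of 0.184. Igf1, the growth factor itself, spread widely among the controls, at 9.03, 8.69 and 9.64, and the KO arrays at 9.48, 9.29 and 9.45 lay within that range. Its log2 fold change was 0.29 with a 95% confidence interval of -0.20 to 0.78. Leaving out control array 2 or control array 3 in turn moved this value to 0.07 and 0.55.

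The 3 binding proteins lay above the controls on every cSix1 KO array. Igfbp5, a binding protein that muscle cells make as they differentiate, gave 11.40, 11.79 and 11.97 in controls and 12.38, 12.31 and 12.44 in cSix1 KO. The KO arrays were close together (12.37 ± 0.06, SD, n = 3) and control array 1 was the lowest of the controls (11.72 ± 0.29, SD, n = 3). The log2 fold change was 0.66 (SE 0.14, 95% confidence interval 0.34 to 0.97), or 1.57-fold, and missed the threshold at an adjusted p of 0.0620. It passed with dim genes left out (0.0463), with an intensity trend and robust prior (0.0466), with array weights (0.0236) and with all 10 arrays in 1 fit (0.0357). Under the other 5 alternatives it did not pass (up to 0.282, with the methods' t-test), nor without any 1 array (0.0506 to 0.193).

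Igfbp7, a secreted protein with low affinity for IGFs that is abundant in vessels and connective tissue, gave 11.89, 11.81 and 12.19 in controls and 12.30, 12.26 and 12.45 in cSix1 KO. KO arrays 1 and 2 stood just above control array 3. The log2 fold change was 0.37 (95% confidence interval 0.12 to 0.63, adjusted p = 0.156 in limma). Igfbp4, which mostly holds IGFs back from their receptor, gave 9.27, 9.08 and 9.27 against 9.43, 9.34 and 9.34. Its log2 fold change was 0.17, with an interval of -0.01 to 0.34 that includes 0.

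Counted over the 10 members, 5 lay above the controls without overlap in cSix1 KO gastrocnemius, 2 below, and 3 overlapped. Of all genes 11.0% lay above without overlap and 9.85% below. An unadjusted p under 0.05 was reached by 6 members, against 14.9% of all genes. Besides Mstn and Gdf11 these were Fst, Igf1r, Igfbp5 and Igfbp7. The lowest adjusted p among members that were not called was that of Igfbp5.

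Markers of some other cells moved with the genotype in gastrocnemius. Endothelial, pericyte and smooth muscle, and Schwann cell markers did not, with medians of 0.03, 0.01 and 0.03 and KO sums within the control range. All 7 macrophage markers lay above the control mean, with a median log2 fold change of 0.76, and 1 of them was called higher (Mrc1, a mannose receptor). Their summed linear signal was 3614 to 6339 on the cSix1 KO arrays, KO array 1 being the highest, and 2361 to 2941 on the controls. Without KO array 1 the log2 fold changes were -1.32 for Mstn, -0.90 for Gdf11, which was then not called, and 0.65 for Igfbp5. KO arrays 2 and 3, at 3963 and 3614, also lay above all controls in macrophage signal. Leaving out KO array 1 therefore does not remove the difference in these markers. The 7 fibroblast markers also all lay above the control mean, with a median of 0.33 and summed signals of 9665 to 11879 against 7036 to 9374, and 0 of them were called. Of 6 satellite cell markers 5 lay above and 1 was called (Sdc4, a syndecan), with sums of 1663 to 1902 against 1306 to 1385. The 8 muscle fiber markers all lay below, with a median of -0.11 and sums of 89775 to 93794 against 99320 to 102182. Among them are Myh4, Tnnt3 and Pvalb, fast-type genes that the study reports as lower in cSix1 KO TA. Acta1 at -0.008 and Mb at -0.02 overlapped with the controls, and the others lay below without overlap. In bulk RNA a smaller number of cells of a type, less RNA per cell and lower expression of the markers themselves cannot be told apart. The part of these cells in the values of Mstn, Gdf11, Igf1, Igfbp4, Igfbp5, Igfbp7 and Fst was not tested.

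In TA fibers with shlincMYH no member was called (0 of 10), where 0.0150% of all genes were. The adjusted p ranged from 0.471 to 0.994 in limma, and the methods' t-test also called 0 after adjustment. With 2 arrays a group, 1 member had an unadjusted p under 0.05, against 8.65% of all genes. The median log2 fold change of the members was -0.16, and -0.03 over all genes, with 7 members below the control mean and 3 above.

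That member was Igf1. Its signals were 7.25 and 7.56 with the control vector and 6.93 and 6.67 with shlincMYH, so that both shlincMYH arrays lay below both controls. The log2 fold change was -0.61 (SE 0.16), or 0.657 of the control signal, with an adjusted p of 0.471 in limma. Igf1 is made by several cell types of muscle, and vessel markers moved in the same direction on these arrays. All 8 endothelial markers lay below the control mean (median -0.70, sums of 667 to 1094 against 1361 to 1383), as did all 7 pericyte and smooth muscle markers (median -0.44, sums of 941 to 1313 against 1614 to 1871). Within the shlincMYH arrays the order differed, with both vessel sums lowest on array 1 and Igf1 lowest on array 2. Fibroblast and macrophage markers had medians of 0.05 and -0.01. None of the 15 vessel markers was called, and the part of any of these cells in the value of Igf1 was not tested.

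Mstn showed no resolved difference in TA. The controls stood at 7.31 and 8.15 and the shlincMYH arrays at 7.52 and 7.09, the lower control lying between the shlincMYH arrays. The log2 fold change of -0.42 had a 95% confidence interval of -1.12 to 0.27. It was -0.84 without control array 1 and -0.01 without control array 2. Gdf11 gave 4.98 and 5.30 against 4.72 and 5.37, with a log2 fold change of -0.10 and an interval of -0.66 to 0.47.

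Of the other inhibitors, Inhba gave 5.54 and 5.12 against 5.19 and 5.05 in TA. Acvr2b gave 5.63 and 5.66 against 5.71 and 5.68, without overlap, but with a log2 fold change of only 0.05 (SE 0.11). Among the promoters, Fst gave 5.11 and 4.91 against 5.22 and 4.83, a log2 fold change of 0.01. Igf1r gave 6.10 and 5.70 against 5.86 and 5.56, with overlap. On the TA controls the mean signals of Fst, Gdf11, Inhba and Acvr2b stood at percentiles 42.9, 46.0, 50.6 and 58.2 of all genes. Whether these signals lay above background was not tested, so the small differences of these genes do not show unchanged expression. The class means in TA, given below, include them.

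No binding protein showed a resolved difference in TA. Igfbp5 gave 8.90 and 9.02 with the control vector and 8.77 and 8.87 with shlincMYH, a log2 fold change of -0.14 (95% confidence interval -0.43 to 0.15). Igfbp7 gave 8.72 and 8.51 against 8.28 and 8.45, a log2 fold change of -0.25 (interval -0.58 to 0.08). Both lay below the controls without overlap, as did Igf1, while Igfbp4 overlapped at 5.94 and 6.11 against 6.39 and 5.92. Over all genes 23.0% lay below without overlap in TA and 16.3% above, and of the members 3 lay below and 1 above.

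**Figure D2:**
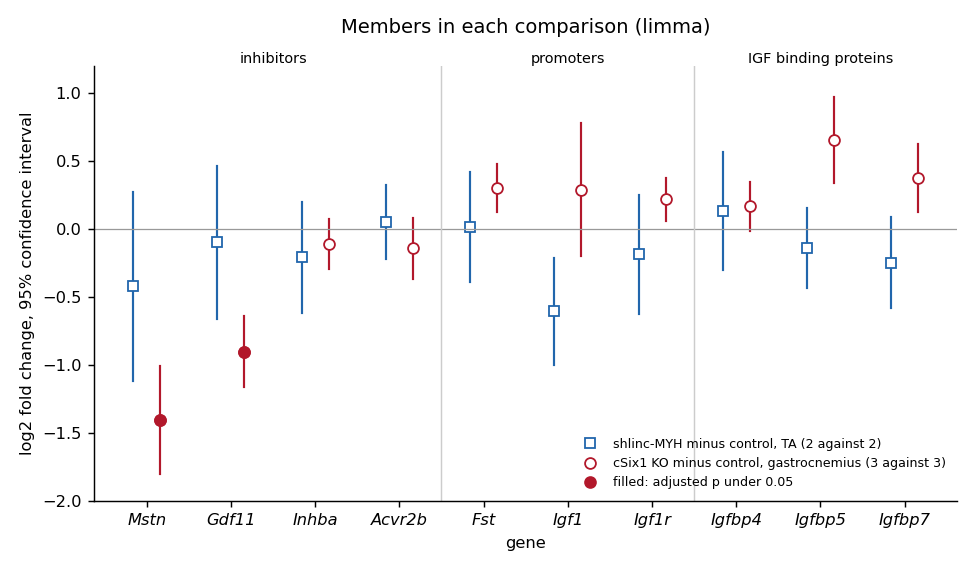
Log2 fold change of each member in limma with its 95% confidence interval (vertical axis), for shlinc-MYH minus control in TA (squares, 2 arrays against 2) and cSix1 KO minus control in gastrocnemius (circles, 3 against 3). The filled circles, Mstn at -1.41 and Gdf11 at -0.90, are the members with an adjusted p under 0.05, and the intervals in TA include 0 for all members but Igf1.

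The inhibitors and the promoters were then set against each other on every array, by averaging over each class how far the log2 signals lay from the control mean of the same tissue. On the 3 cSix1 KO arrays the inhibitors stood at -0.66, -0.75 and -0.51 and the promoters at 0.28, 0.21 and 0.31. Inhibitors minus promoters therefore came to -0.94, -0.97 and -0.82, against -0.06, 0.31 and -0.25 on the control arrays. All 3 KO arrays lay below all 3 controls, with a mean of -0.91 ± 0.08 (SD, n = 3) and a control SD of 0.29. The classes separated chiefly through 2 genes. With Mstn and Gdf11 left out of the inhibitors, a choice made after the values were seen, the mean was -0.40.

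In TA the inhibitors stood at -0.18 and -0.16 on the shlincMYH arrays and the promoters at -0.10 and -0.42. The inhibitors minus the promoters gave -0.08 and 0.26, against -0.14 and 0.14 on the controls. The mean of 0.09 ± 0.23 (SD, n = 2) was within the spread of the controls (SD 0.20), and it was -0.05 without control array 1 and -0.08 without shlincMYH array 2. The promoter class in TA was lowered mainly by Igf1. These class means carry no test, since the members were chosen by name with earlier results in view.

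**Figure D3:**
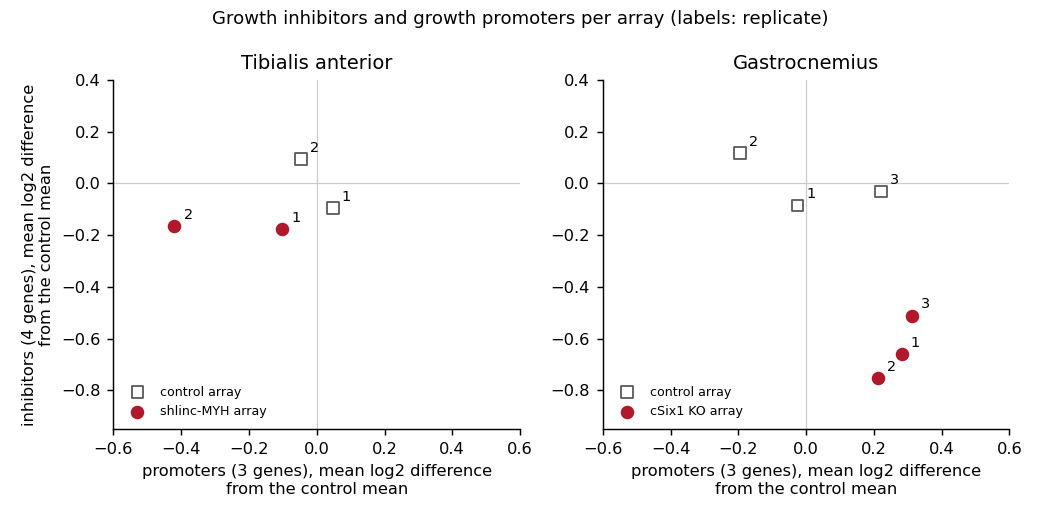
Mean log2 difference from the control mean over the 3 growth promoters (horizontal axis) and the 4 growth inhibitors (vertical axis) for each array of TA (left) and gastrocnemius (right), with the replicate number beside each point. The cSix1 KO arrays lie at the lower right, with inhibitors at -0.75 to -0.51 and promoters at 0.21 to 0.31, with every control array above them. In TA, shlincMYH array 2 lies to the left of the others, with promoters at -0.42.

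Whether the response in gastrocnemius differed from that in TA was tested for each gene as the cSix1 KO effect minus the shlincMYH effect, in 1 limma fit over all 10 arrays. The comparisons share no arrays, and they differ in tissue, in collection and in the agent, which cannot be told apart. No member passed (0 of 10, lowest adjusted p 0.181), against 0.145% of all genes. An unadjusted p under 0.05 was reached by 6 members and by 12.3% of all genes. The largest differences among members were those of Mstn at -0.98 (95% confidence interval -1.77 to -0.20, adjusted p = 0.306) and of Igf1 at 0.89 (0.20 to 1.59, adjusted p = 0.301). Gdf11 differed by -0.80 (-1.38 to -0.23), Igfbp5 by 0.80 (0.35 to 1.24) and Igfbp7 by 0.62 (0.23 to 1.02). Single TA arrays moved these values, Mstn to -0.57 without control array 1 and to -1.40 without control array 2, and Gdf11 to -0.48 without shlincMYH array 2. So the fall of Mstn and Gdf11 in gastrocnemius was not shown to differ from TA after adjustment, though these intervals exclude 0 before it. Igfbp5 and Igfbp7 lay below the controls in TA and above them in gastrocnemius, both without overlap, which held for 1.73% of all genes. That share counts this direction only, and the TA intervals of both genes include 0.

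The surrounding pathways were read through 67 other genes in 6 lists by function, of which 64 were measured. In cSix1 KO gastrocnemius 1 of the 64 was called, Igf2, which rose, against 0.908% of all genes called higher. The median log2 fold change of the 64 was 0.02, against 0.01 over all genes. An unadjusted p under 0.05 was reached by 17 of the 64 in gastrocnemius, against 14.9% of all genes. In TA 0 of the 64 were called in limma, against 0.0150% of all genes, 7 had an unadjusted p under 0.05, against 8.65%, and the median was -0.04.

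Igf2 encodes the second IGF ligand, best known as a fetal growth factor and also made by differentiating muscle cells. Its signals were 10.28, 9.64 and 10.002 in control gastrocnemius and 11.01, 10.91 and 11.03 in cSix1 KO, without overlap. It rose by 1.01 on the log2 scale (SE 0.15, 2.01-fold, adjusted p = 0.0192 in limma). Without control array 3 the adjusted p was 0.0607, without KO array 1 it was 0.0863, and without KO array 2 it was 0.0712. In TA, Igf2 gave 7.56 and 6.87 with the control vector and 8.97 and 8.27 with shlincMYH. Both shlincMYH arrays lay above both controls, at a log2 fold change of 1.41 (SE 0.30) and an adjusted p of 0.409, or 0.0718 with the replicate number as a block. With all 10 arrays in 1 fit the adjusted p of Igf2 was 0.0451 in TA and 0.0565 in gastrocnemius. That fit takes the spread of a gene from both tissues, and it called 131 genes in TA, against 3 with the TA arrays alone.

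Igf2r, the receptor that takes up IGF-2 for degradation, gave 7.63 and 7.60 in TA controls and 8.24 and 8.17 with shlincMYH. The log2 fold change was 0.59 (adjusted p = 0.362 in limma, and 0.0178 with all 10 arrays in 1 fit). In gastrocnemius its log2 fold change was 0.30 (adjusted p = 0.0733). The third gene of that list, Insr, the insulin receptor, had log2 fold changes of -0.19 in TA and -0.09 in gastrocnemius.

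On the myostatin side, the antagonist Wfikkn2, which binds myostatin and GDF11, gave 7.06, 7.05 and 6.99 in control gastrocnemius and 6.70, 6.75 and 6.72 in cSix1 KO. The groups lay apart, with a log2 fold change of -0.31, and the adjusted p was 0.0558. Acvr1b, a type I receptor that activin and myostatin use to reach the Smads, gave 9.45, 9.34 and 9.02 against 8.78, 8.78 and 8.81. Its log2 fold change was -0.48 (adjusted p = 0.0820), and without control array 3 it was -0.60 and passed at 0.0257. Inhbb, the subunit of activin B, had a log2 fold change of 0.28 (adjusted p = 0.176). The lists on this side reach into the wider TGF-beta family, and the antagonists include Nog and Grem1. None of the 10 ligands and processing enzymes, 8 antagonists, and 14 receptors and Smads was called in either tissue. Their medians in gastrocnemius were 0.08, -0.04 and 0.08.

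On the IGF side, Grb10, an adaptor that dampens signaling from the insulin and IGF receptors, had a log2 fold change of 0.34 in cSix1 KO gastrocnemius (adjusted p = 0.0771). Stc2, a stanniocalcin that blocks the protease which frees IGF from its binding proteins, gave 8.99, 8.73 and 7.60 in controls and 7.60, 7.70 and 7.84 in cSix1 KO. Control array 3 lay with the KO arrays, the log2 fold change was -0.73 (adjusted p = 0.329), and without that array it was -1.15 at an adjusted p of 0.0153. Without control array 1 it was -0.45 at an adjusted p of 0.659. Of 10 binding proteins and proteases 0 were called in gastrocnemius, with a median of 0.00, and of the 19 measured genes from the receptor substrates to Akt, mTOR and the Foxo factors 0 were called, with a median of 0.08. In TA the genes with the largest test statistic in their lists, apart from Igf2r, were Irs1 (-0.56, adjusted p = 0.431), Tgfb3 (0.44, 0.519), Smad7 (-0.37, 0.509), Nog (-0.31, 0.567) and Stc1 (-0.29, 0.591). Irs1 carries the signal of the IGF and insulin receptors and Smad7 is the inhibitory Smad, and neither passed.

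**Figure D4:**
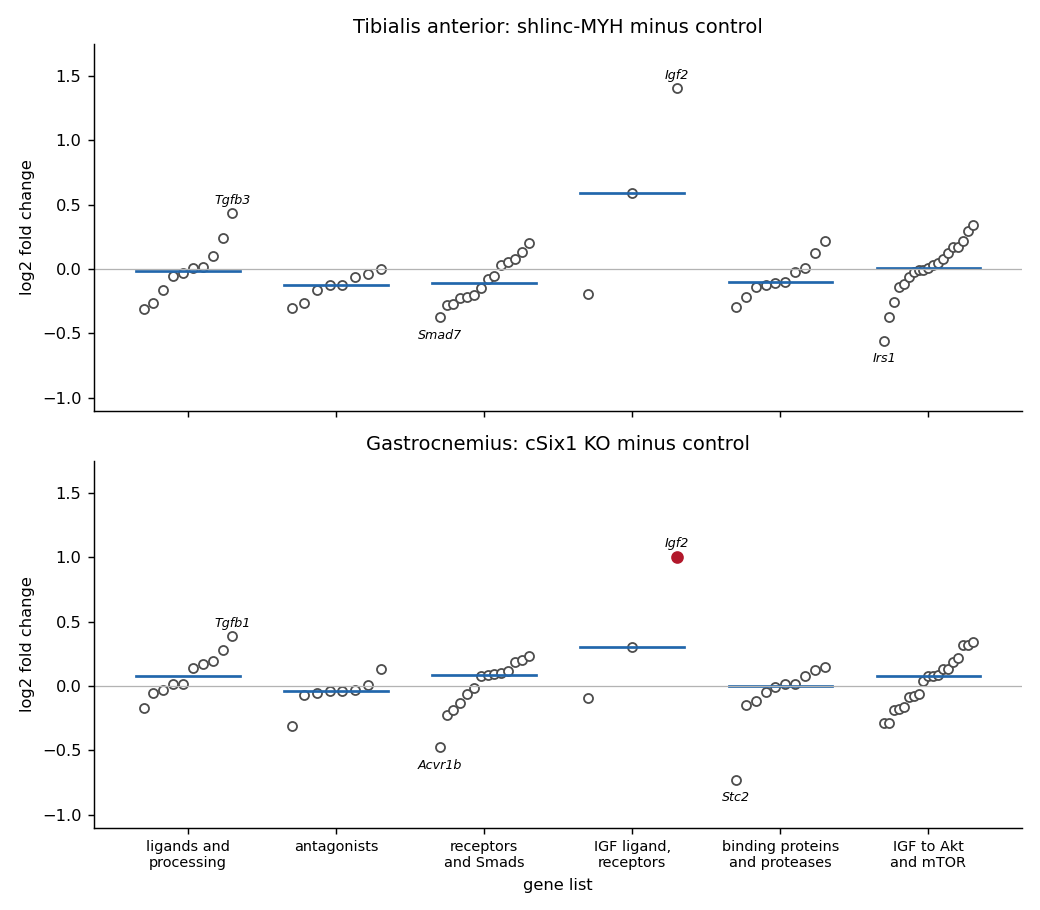
Log2 fold change in limma (vertical axis) of the 64 other measured genes of the pathways in their 6 lists (horizontal axis), for TA above and gastrocnemius below. Each point is a gene, the bar is the median of its list, the filled point has an adjusted p under 0.05 and the labeled genes lie farthest out. Igf2, at 1.41 in TA and 1.01 in gastrocnemius, is the highest point of both panels.

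The genes whose pattern over the arrays was most like that of Mstn were found by the Pearson correlation over the 10 arrays, after the mean of each tissue was subtracted, among 18315 genes with an established name. They were Timmdc1, a mitochondrial assembly factor (r = 0.992), Ppm1l, a protein phosphatase (r = 0.973), and Atg9a, a membrane protein of autophagy (r = 0.971). The points share the difference between cSix1 KO and control, and the log2 fold changes of these genes in gastrocnemius were -0.45, -0.80 and -0.37. The same search for Igf1 gave Nxpe4 (r = 0.948), Arhgef3 (r = 0.945) and Tbc1d20 (r = 0.938). With so few arrays and so many genes these likenesses are a description only.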

How the data were processed

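Gene expression was read from the authors' deposited log2 signals, 1 value per probe set and array, made from the scanned arrays by RMA, which subtracts background, normalizes and summarizes probes. RMA and Partek are named in the submitters' processing notes without versions, and the methods run RMA in R. The sources used here do not say whether the tissues were normalized together. The table held 35556 probe sets and 10 arrays, with 0 missing values. In the platform annotation 21789 probe sets had 1 symbol, 1621 several and 12146 none, and only the first were used, for 19938 genes. Where a gene had several probe sets (999 genes), the brightest on average was kept. Arrays give no read depth, and the number of arrays limits the precision.

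The arrays of each tissue were analysed separately in limma (version 3.58.1, run in R 4.3.3), using lmFit, eBayes and Benjamini-Hochberg adjusted p-values called under 0.05. For the difference of the effects, the 4 groups were fitted jointly. The scripts were tested on simulated data. Tables and plots used Python 3.11.15, pandas 2.3.3 and matplotlib 3.10.9. Groups came from the sample labels.

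The members and gene lists were chosen with earlier results of these data known. Named genes were all members, called genes of the pathway lists, the gene with the largest moderated statistic in each list and comparison, and the 3 genes most like Mstn and Igf1. Tsc1, Gsk3b, Akt1, Insr and the cell markers were named after their values were seen. The targeted genes, 3 of the listed pathway genes and some of the listed cell markers are not reported here. The other 3 Schwann cell and 4 adipocyte markers had medians of -0.25 and -0.08 in TA and of 0.03 and 0.30 in gastrocnemius, with 0 called. Fibroblast, macrophage, satellite cell and muscle fiber markers had medians of 0.05, -0.01, 0.12 and -0.11 in TA, and endothelial and pericyte markers of 0.03 and 0.01 in gastrocnemius, with 0 called. Promoter windows came from RefSeq (GRCm38.p6). The alternatives were quantile normalization, centring on array medians, leaving out dim genes, averaging a gene's probe sets, an intensity trend with robust prior, weighting of arrays, a replicate block, all arrays in 1 fit, the methods' t-test and leaving out each array in turn.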

Additional observations from a re-analysis of the deposited data

How the results depend on the processing

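No alternative called a member in TA or for the difference between the comparisons. In gastrocnemius, array weights called 4 members, adding Fst (adjusted p = 0.0491) and Igfbp5, and the methods' t-test called 0 (Igf2 0.198). Over all genes array weights called 989 and the intensity trend 543, against 347 in the main fit. Leaving out dim genes called 460, quantile normalization 378, centring 354 and all 10 arrays in 1 fit 250. The further calls with more genes called in all are therefore not particular to these pathways. Leaving out 1 array called 0 to 2 members. The other pathway genes called in gastrocnemius numbered 4 after quantile normalization (adding Wfikkn2, Igf2r and Tsc1), 2 after centring (Wfikkn2), 4 without dim genes (Igf2r, Grb10 and Tsc1), 6 with the intensity trend (Acvr1b, Igf2r, Grb10, Gsk3b and Tsc1), 6 with array weights (Wfikkn2, Acvr1b, Igf2r, Akt1 and Tsc1), 0 with all 10 arrays in 1 fit, 0 with the t-test, and 0 to 2 without 1 array. In TA 2 were called with all 10 arrays in 1 fit (Igf2 and Igf2r), a fit that called 131 of all genes there, against 3 in the main fit. Inhibitors minus promoters was -0.46 in gastrocnemius with the binding proteins counted as inhibitors, -0.40 without Mstn and Gdf11 (chosen after seeing the data) and -1.04 to -0.75 without 1 array. In TA it was -0.076 to 0.26 without 1 array, turning sign without control array 1 (-0.052) or shlincMYH array 2. The cause of these changes was not tested.

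Small values that missed the threshold turned sign. Wfikkn2 in TA was 0.00015 after quantile normalization, Stc1 in gastrocnemius -0.016 with array weights, and the Igfbp4 difference -0.025 after centring. Without 1 array, the ranges that crossed 0 in TA were -0.42 to 0.23 for Gdf11, -0.42 to 0.00095 for Inhba, -0.18 to 0.21 for Fst, -0.39 to 0.013 for Igf1r, -0.10 to 0.36 for Igfbp4 and -0.17 to 0.10 for Wfikkn2. In gastrocnemius they were -0.15 to 0.033 for Tgfb3, -0.098 to 0.028 for Nog, -0.38 to 0.013 for Smad7 and -0.038 to 0.30 for Stc1. For the difference they were -0.11 to 0.31 for Inhba and -0.20 to 0.27 for Igfbp4.

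With the replicate number as a block, 2 members and 1 pathway gene were called in gastrocnemius and 0 in TA, and the block changed no call of these genes. Over all genes it called 5 against 3 in TA and 186 against 347 in gastrocnemius. In TA it took the adjusted p of Igf2 from 0.409 to 0.0718. Same-numbered arrays deviated together only in part (r = 0.22, -0.14 and 0.08 in gastrocnemius and 0.19 in TA), and the labels do not tie the numbers to mice, so the numbers were not taken to pair the arrays, although the methods use the other leg as the control of the knockdown. Leaving out 1 array of a TA group leaves 1, which is then assumed to vary like the other group. With 2 or 3 arrays a group, differences smaller than the intervals given could not be resolved.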
